A study of Schizosaccharomyces pombe with 6 samples.

Results

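Expression of 10 genes that encode the core factors of heterochromatin and RNA interference was compared between wild-type fission yeast and an *asp1-H397A aps1*∆ *siw14*∆ *spx1*∆ mutant. The genes were *swi6* (SPAC664.01c), *clr4* (SPBC428.08c), *chp1* (SPAC18G6.02c), *chp2* (SPBC16C6.10), *clr3* (SPBC800.03), *sir2* (SPBC16D10.07c), *ago1* (SPCC736.11), *dcr1* (SPCC188.13c), *rdp1* (SPAC6F12.09), and *epe1* (SPCC622.16c). They were chosen by systematic ID, as 10 rows of a table of 6988 features, and not by their values, though earlier results of these data were known. All 10 passed the filter on low counts, which kept 5947 features.

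The RNA-seq experiment asked how gene expression responds in cells that carry the inositol pyrophosphatase mutations but have no Spx1. Its 6 libraries came from 3 biological replicate cultures of each strain. The wild-type strain was *h-*. The mutant, also given as *h-* in the labels, combined 4 alleles, *asp1-H397A::natMX* and *aps1∆::kanMX* with *siw14∆::hygMX* and *spx1∆::ura4MX*. The strain list of the study holds this genotype as *h+*, under a strain number other than that of the labels, so the mating type of the mutant is uncertain. The mutant carries an Asp1 without pyrophosphatase activity and lacks the pyrophosphatases Aps1 and Siw14 and the SPX-domain protein Spx1, and each altered locus is linked to a selection marker. The cells of both strains were haploid and in vegetative log-phase growth at 30°C in ePMGT, a synthetic medium replete in phosphate. Directional libraries were made from poly(A)+ RNA. No strain with fewer of the mutations was analysed here, so the effects of the 4 altered genes and of the markers cannot be told apart.

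Heterochromatin in fission yeast forms at centromeres, telomeres, and the silent mating-type locus, where the methyltransferase Clr4 methylates histone H3 on lysine 9. The chromodomain proteins Swi6, Chp2, and Chp1 bind this mark, and the deacetylases Clr3 and Sir2 remove acetyl groups from the histones. Small RNAs made by the dicer ribonuclease Dcr1 from double-stranded RNA, which the RNA-dependent RNA polymerase Rdp1 synthesizes, are loaded onto Ago1. Ago1 and Chp1 are subunits of the RITS complex that directs Clr4 to centromeric repeats, and Epe1, a JmjC-domain protein, opposes the spreading of the mark.

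Deposited counts summed to between 16593476 and 22690741 per library, of which the 10 genes together took 9280 to 12425. The counts of the deleted genes were lower in the mutant, but not to the same extent. There were *aps1* counts of 3083 to 3657 in wild-type and 307 to 330 in mutant libraries, and *siw14* counts of 1925 to 2666 and 70 to 107. *spx1* kept 1915 to 2369 counts in the mutant, against 4524 to 6452 in wild-type libraries, and whether these reads lie outside the deleted part was not tested. *ura4*, which marks its deletion, had 0 counts in wild-type and 8309 to 9631 in mutant libraries. The point mutation in *asp1* (1199 to 1417 counts in wild-type and 927 to 1034 in mutant libraries) cannot be checked from counts. The mating type could be checked only in part, since *mat1-Pc* and *mat2-Pc* were not analysed here. Of 7 M-type marker genes, 6 were measured in both strains and the feature listed as *mat1-Mc* was at 0 in every library. The 6 had 26 to 3917 counts in wild-type libraries. In mutant libraries they had from 9 counts, for *mfm1*, to 1545, for *mam1*. The P-type marker genes *map1*, *map2*, and *map3* were also detected, at 35 to 311 counts.

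Wild-type replicate 3 stood apart from the other wild-type replicates. Among genes averaging 100 normalized counts or more, 100 of 5067 differed by over 2-fold between wild-type replicates 1 and 3, and 13 of 5054 between replicates 2 and 3, against 0 to 12 in the other pairs of one strain. At over 1.5-fold the counts were 1204 for replicates 1 and 3 and 507 for replicates 2 and 3, against 11 to 63 in the other pairs. The departure followed expression level. Replicate 3 lay below the other wild-type replicates by a median log2 difference of −0.28 in the lowest-expressed genes, of −0.13 in the middle group, and above them by 0.22 in the highest-expressed group, each group holding 1982 or 1983 genes. The 10 genes fell mostly in the middle group, which held 7 of them, with 2 in the lowest and 1 in the highest. The changes of the 10 factors, their partners, and the genes around them are therefore given with and without this library.

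None of the 10 transcripts passed the test for a change between the strains. The study's cutoffs require an adjusted p no higher than 0.05, a rise or fall of 2-fold or more, and an average of 100 or more normalized counts in the strain with the higher level. At these cutoffs 0 of 10 passed by edgeR's quasi-likelihood test, by DESeq2, or by limma-voom. Of all genes tested, 2.09% passed by edgeR, 0.37% as higher and 1.72% as lower. With the adjusted p alone, 0 of 10 passed by edgeR, DESeq2, or limma-voom, against 12.4% of all genes by edgeR. The count at an unadjusted p under 0.05 was 1 of 10 by edgeR, *chp1*, against 27.4% of all genes.

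The data bounded each change. All 10 of the 95% intervals lay inside a 2-fold change in either direction, as did 87.4% of the intervals of all genes. The lowest bound was a log2 fold change of −0.30, for *swi6*, and the highest was 0.80, for *chp1*, equal to 0.813-fold and 1.74-fold. The log2 fold changes, mutant over wild-type, ran from −0.05 to 0.41 with a median of 0.10, and 8 of 10 were above 0. The median of all 5947 genes was 0.00, and 50.3% were above 0. Without wild-type replicate 3 the median of the 10 was 0.11 and 7 were above 0, against −0.02 and 47.0% for all genes.

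*clr4* encodes the only histone H3 lysine 9 methyltransferase of fission yeast. It had 579, 662, and 705 normalized counts in wild-type replicates 1, 2, and 3, and 728, 708, and 728 in mutant replicates 1, 2, and 3. A normalized count is the count of a library scaled to a common library size. Every mutant library was above every wild-type library, by as little as 705 against 708. The log2 fold change was 0.15 (standard error 0.13, adjusted p = 0.507), and 0.21 (adjusted p = 0.126) without wild-type replicate 3, so the difference did not pass the test. Over all genes, 16.4% had every mutant library above every wild-type library and 17.3% had every mutant library below.

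Of the readers of the mark, *swi6*, encoding the abundant HP1 protein, had 1660, 1556, and 993 normalized counts in wild-type and 1497, 1408, and 1490 in mutant libraries. Its low value in wild-type replicate 3 was below all mutant libraries, and its other wild-type values were above them. The log2 fold change of *swi6* was 0.06 (standard error 0.16, adjusted p = 0.853), and −0.14 (adjusted p = 0.219) without that replicate. *chp2*, encoding the second HP1 protein, which binds the SHREC deacetylase complex, had 325, 257, and 183 normalized counts in wild-type and 293, 332, and 335 in mutant libraries. The groups overlapped. Its log2 fold change was 0.33 (standard error 0.20, adjusted p = 0.329), and 0.14 (adjusted p = 0.486) without wild-type replicate 3. Without wild-type replicate 1 that of *chp2* was 0.53 (adjusted p = 0.0527 by edgeR), which did not pass.

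*chp1*, encoding the chromodomain subunit of RITS, had 664.4, 567, and 405 normalized counts in wild-type and 765, 690, and 717 in mutant libraries. All mutant values were above all wild-type values. This was the largest difference among the 10 genes, at 0.41 on the log2 scale (standard error 0.18, 95% interval 0.02 to 0.80), and its adjusted p of 0.160 by edgeR did not pass. Of the 18 alternative analyses, it passed in 1, without wild-type replicate 1 (0.57, adjusted p = 0.0217). Without wild-type replicate 3 it was 0.23 (adjusted p = 0.110).

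**Figure D1:**
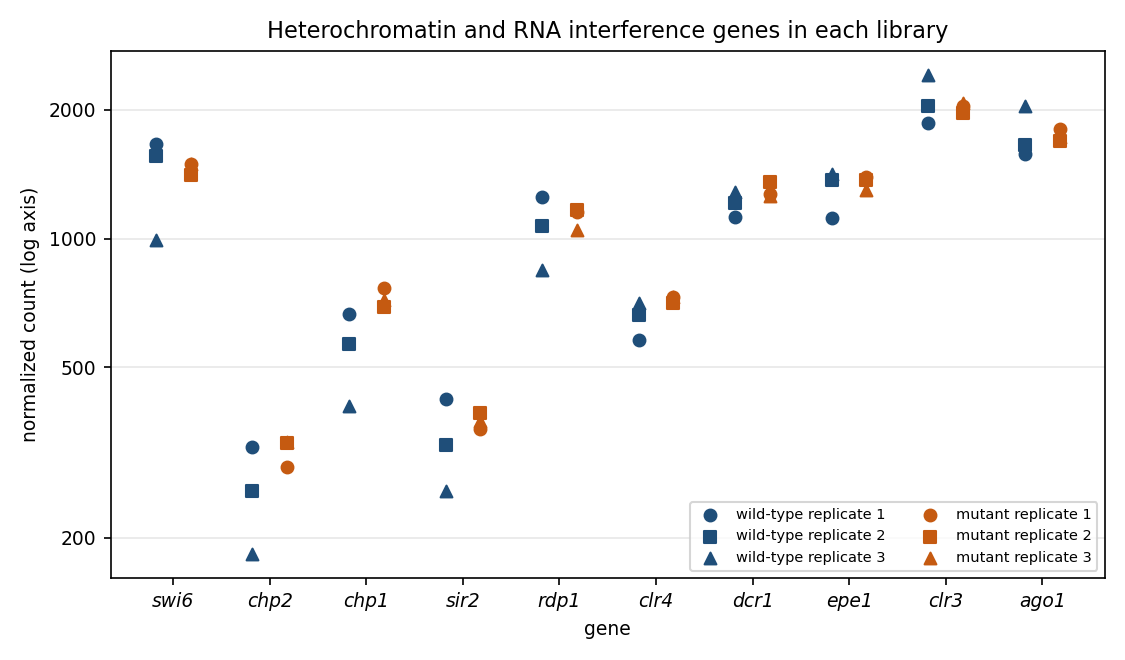
Normalized counts of the 10 genes (log axis) in 3 wild-type and 3 mutant libraries, with 1 point per library and the shape giving the replicate number. The wild-type points spread more widely than the mutant points for each gene, with wild-type replicate 3 (blue triangles) lowest for the 5 genes on the left and highest for *epe1*, *clr3*, and *ago1*.

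The deacetylase genes did not pass the test either. *clr3*, encoding a histone deacetylase of SHREC that acts on lysine 14 of histone H3, had 1858, 2039, and 2415 normalized counts in wild-type and 2040, 1968, and 2069 in mutant libraries. All mutant values lay within the wild-type range, and the log2 fold change of *clr3* was −0.05 (standard error 0.11, adjusted p = 0.797), and 0.05 (adjusted p = 0.668) without wild-type replicate 3. *sir2*, encoding an NAD-dependent deacetylase, had 422, 329, and 257 normalized counts in wild-type and 358, 391, and 375 in mutant libraries. Its mutant values also lay inside the wild-type range. The log2 fold change of *sir2* was 0.16 (standard error 0.19, adjusted p = 0.642), and −0.0029 (adjusted p = 0.990) without wild-type replicate 3.

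Among the RNA interference genes, *ago1*, the single Argonaute gene of fission yeast, had 1575, 1657, and 2039 normalized counts in wild-type and 1802, 1689, and 1732 in mutant libraries. The mutant values lay between wild-type replicates 2 and 3. The log2 fold change of *ago1* was −0.01 (standard error 0.11, adjusted p = 0.958), the closest to 0 of the 10, and 0.10 (adjusted p = 0.360) without wild-type replicate 3. *dcr1* had 1125, 1208, and 1286 normalized counts in wild-type and 1270, 1358, and 1255 in mutant libraries, which overlapped. Its log2 fold change was 0.10 (standard error 0.11, adjusted p = 0.604), and 0.14 (adjusted p = 0.224) without wild-type replicate 3. For *rdp1* the values were 1250, 1067, and 844 in wild-type and 1154, 1163, and 1046 in mutant libraries. They overlapped as well, and the log2 fold change of *rdp1* was 0.09 (standard error 0.15, adjusted p = 0.747), and −0.05 (adjusted p = 0.719) without that replicate.

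The anti-silencing gene *epe1* had 1118, 1367, and 1419 normalized counts in wild-type and 1391, 1374, and 1299 in mutant libraries. The mutant values were inside the wild-type range. Its log2 fold change was 0.06 (standard error 0.12, adjusted p = 0.802), and 0.12 (adjusted p = 0.352) without wild-type replicate 3.

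**Figure D2:**
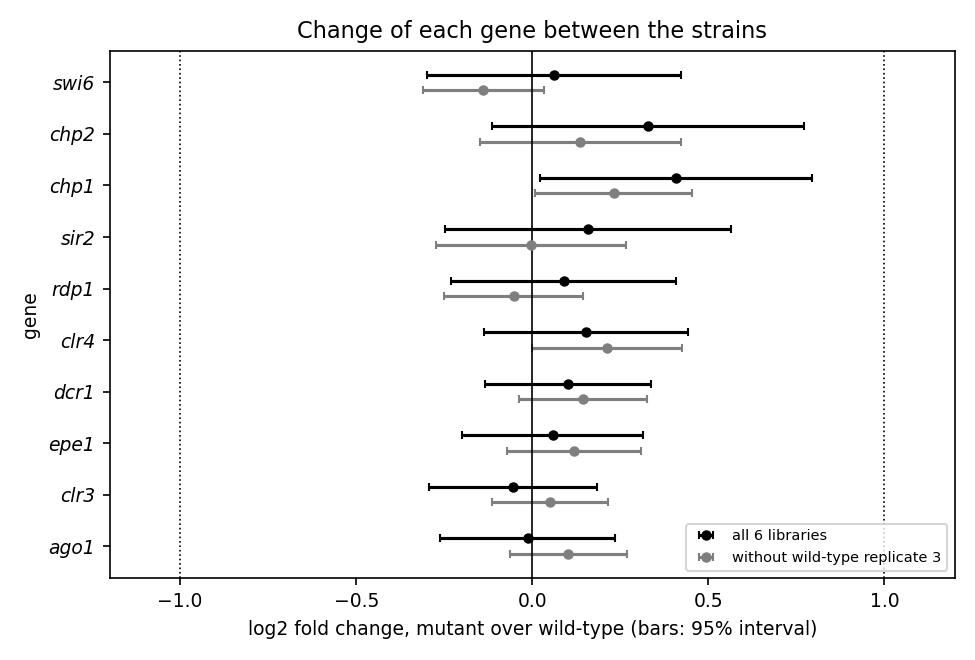
Log2 fold change (mutant over wild-type) of each gene with its 95% interval from edgeR, with all 6 libraries (black) and without wild-type replicate 3 (grey). Dotted lines mark a 2-fold change; no interval reaches them, and the estimates of *swi6*, *rdp1*, *sir2*, *clr3*, and *ago1* are on opposite sides of 0 in the 2 fits.

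The 10 genes varied more among the wild-type cultures than among the mutant cultures. The coefficient of variation over the 3 wild-type libraries had a median of 16.7% for the 10 genes (6.70% for *dcr1* to 27.8% for *chp2*), against a median of 3.96% over the 3 mutant libraries (1.65% for *clr4* to 7.42% for *chp2*). It was larger in wild-type for 10 of 10 genes. That held for 85.6% of 5048 genes that averaged 100 normalized counts or more and were counted in both strains, whose medians were 13.3% and 4.62%. For 7 of the 10 genes, all but *chp1*, *clr4*, and *dcr1*, the mutant mean lay inside the range of the wild-type libraries, as it did for 51.6% of all genes.

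The factors did not move together between the wild-type cultures. In wild-type replicate 3, *swi6*, *chp2*, *chp1*, *sir2*, and *rdp1* were at 61.8%, 62.9%, 65.8%, 68.5%, and 72.8% of the mean of the other wild-type replicates, and this library was the lowest of the 6 for each of them. By contrast, *ago1* was at 126% of that mean, *clr3* at 124%, and *epe1* at 114%, the highest of the 6. *clr4* (114%) and *dcr1* (110%) were at neither end. Wild-type replicate 3 was the lowest library for 32.7% of all genes and the highest for 32.2%. Wild-type replicate 1 took the other end, as the lowest library for 5 of the 10 genes and the highest for 3, against 28.6% and 28.2% of all genes. Wild-type replicate 2 lay between the other wild-type replicates for 10 of 10, as it did for 78.2% of all genes.

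Per unit of exon length, the transcripts of the 10 genes were spread over a 5.84-fold range in wild-type cells. In RPKM, the count divided by the kilobases of exon and by the library size, *clr3* had 41.8 ± 5.65 in wild-type cells (SD, n = 3), *swi6* 40.4 ± 10.3, and *ago1* 32.7 ± 4.61. Below them were *epe1* at 15.9 ± 1.96 RPKM, *rdp1* at 12.7 ± 2.45, *dcr1* at 10.5 ± 0.703, and *chp2* at 10.3 ± 2.85. The lowest RPKM values were 8.24 ± 2.02 for *sir2*, 7.52 ± 1.81 for *chp1*, and 7.16 ± 0.708 for *clr4*. The median of 4957 coding genes was 34.5 RPKM, so 8 of the 10 factors lay below it and *clr3* and *swi6* above it, at percentiles from 8.78 for *clr4* to 56.6 for *clr3*. Of neighbours in this order, only *ago1* and *epe1* had ranges over the wild-type libraries that did not overlap. The exon lengths come from the ASM294v3 annotation, while the reads were counted over exons of ASM294v2. In ASM294v3 the gene models hold untranslated regions and range from 1213 bases for *chp2* to 5609 for *dcr1*, and *clr4* has 4415. The RPKM values, percentiles, and order therefore depend on these models.

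The levels in the mutant followed nearly the same order. They were 42.2 ± 1.42 RPKM for *swi6*, 40.3 ± 1.03 for *clr3*, 32.4 ± 1.07 for *ago1*, and 16.5 ± 0.596 for *epe1*. *rdp1* had 13.5 ± 0.785 RPKM in the mutant, *chp2* 12.9 ± 0.954, *dcr1* 11.3 ± 0.486, *chp1* 9.98 ± 0.519, *sir2* 9.20 ± 0.398, and *clr4* 7.97 ± 0.131. The ranges over the mutant libraries did not overlap for *clr3* and *ago1*, *ago1* and *epe1*, *epe1* and *rdp1*, *dcr1* and *chp1*, or *sir2* and *clr4*. The ranges of the other neighbours overlapped. The changes of place were those of *swi6* with *clr3*, *chp2* with *dcr1*, and *chp1* with *sir2*, whose ranges overlapped in both strains.

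Ratios between factors within a library do not depend on the scaling between libraries. For 6 ratios of RPKM values the strains were compared by an exact permutation test, two-sided, whose smallest p with 3 libraries of each strain is 0.1, so none could pass. The log2 ratio of *epe1* to *swi6*, an opposing factor to a reader of the mark, was −1.81, −1.42, and −0.72 in wild-type and −1.34, −1.27, and −1.44 in mutant libraries. The mutant values lay within the wild-type range, with a difference of −0.03 (exact p = 0.9), and of 0.27 without wild-type replicate 3. The log2 ratio of *chp2* to *swi6*, the HP1 genes, was −1.87, −2.12, and −1.96 in wild-type and −1.87, −1.60, and −1.67 in mutant libraries, a difference of 0.27 (exact p = 0.1, 0.6 adjusted over the 6 ratios). That difference ran from 0.20 to 0.35 when each library was left out. The strains nearly met in replicate 1, at −1.87296 in wild-type and −1.87283 in mutant. The other 4 differences were −0.09 for *epe1* to *clr4*, 0.11 for *dcr1* to *ago1*, 0.11 for *rdp1* to *ago1*, and −0.23 for *clr3* to *sir2*, with exact p of 0.2 to 0.9.

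Partners of the 10 factors were grouped in 6 lists with 51 genes, and all 51 were tested. By edgeR and adjusted p alone, 0 were higher and 0 lower, against 5.33% and 7.03% of all genes, and 8 had an unadjusted p under 0.05, against 27.4% of all genes. The lowest log2 fold change was −0.15, for *stc1*, which links RNA interference to the methyltransferase complex. Of the 51, 39 were above 0, against 50.3% of all genes, and the median was 0.11. The excess was smaller without wild-type replicate 3, where 27 of the 51 were above 0, against 47.0% of all genes, and the median was 0.0060. Without wild-type replicate 1 the median of the 51 was larger, at 0.20, against 0.01 for all genes. All 51 intervals lay within a 2-fold change, and in 12 genes every mutant library was above every wild-type library, with 0 below, against 16.4% and 17.3% of all genes.

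By list, the median log2 fold change was 0.05 for the 5 genes of the methyltransferase complex, 0.11 for 8 RNA interference partners, 0.11 for 8 genes of SHREC and other deacetylases, and 0.13 for 9 opposing and boundary factors. It was 0.13 for 13 other silencing and telomere factors and 0.09 for 8 genes of RNA elimination and surveillance. These medians without wild-type replicate 3 were −0.09, −0.07, 0.06, 0.20, 0.05, and 0.05 in the same order, so those of the methyltransferase complex and the RNA interference partners changed sign. The lowest adjusted p was that of *paf1*, which encodes a subunit of the Paf1 transcription elongation complex (log2 fold change 0.35), just above the threshold, and without wild-type replicate 3 it passed at 0.27 (adjusted p = 0.0155). *ccq1*, encoding a telomere protein that binds SHREC, had 0.32 (adjusted p = 0.0797), and *hos2*, a deacetylase gene, had 0.36 (adjusted p = 0.0816). Without that replicate both passed, *ccq1* at 0.30 (adjusted p = 0.0124) and *hos2* at 0.41 (adjusted p = 0.00237). *hrr1*, encoding a helicase that acts with Rdp1, had 0.29, *rrp6*, encoding a nuclear exosome nuclease, 0.35, and *cid14*, encoding a poly(A) polymerase of RNA surveillance, 0.32, and none of these passed. Their log2 fold changes without wild-type replicate 3 were 0.09 for *hrr1*, 0.10 for *rrp6*, and 0.10 for *cid14*, and they reached 0.39, 0.54, and 0.52 when another library was left out.

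The count in these lists depended on the libraries used. Without wild-type replicate 3, 8 of the 51 were higher (among them *ccq1*, *ddb1*, *hos2*, *lsd1*, *lsd2*, *paf1*, and *slm9*), against 14.3% of all genes. Without wild-type replicate 1, 6 were higher (among them *asf1*, *cid14*, *hos2*, *paf1*, and *rrp6*), against 10.6% of all genes. DESeq2 gave 4 (among them *ccq1*, *hos2*, and *paf1*), against 7.26%, and limma-voom gave 1, *paf1*, against 5.68%. None of the 51 was lower in any of the 18 alternatives.

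Transcripts of subtelomeric regions, where these factors act, were few and of low count. Of 21 subtelomeric genes in the list, 6 could be tested, and 2 were higher and 2 lower by adjusted p alone, against 5.33% and 7.03% of all genes. Among these, *tlh1* and *SPBCPT2R1.04c*, described below, passed the low-count filter only through the strain where they are high. Such genes lean toward a call in that direction, so the counts are not a measure of the list as a whole. *tlh2*, a subtelomeric gene of a RecQ-type helicase, had 57, 24, and 13 counts in wild-type and 250, 190, and 293 in mutant libraries, with no overlap of the groups. Its log2 fold change was 2.79 (standard error 0.38, adjusted p = 0.000755), 3.62 at the highest when 1 library was left out and 2.45 at the lowest, without wild-type replicate 3, and it passed the cutoffs of the study. Its near copy *tlh1* had 7, 1, and 0 counts against 31, 24, and 26 (log2 fold change 3.13, adjusted p = 0.00641), with 2.60 without wild-type replicate 3 and up to 5.36 when another library was left out. Because the copies are nearly identical, how the counting split their reads is uncertain.

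The lower transcripts came from the same chromosome ends. *SPBCPT2R1.04c*, on the subtelomere that holds *tlh2*, had 15, 12, and 31 counts in wild-type and 1, 4, and 2 in mutant libraries (log2 fold change −3.14, adjusted p = 0.00768), with −3.78 to −2.59 when each library was left out and −2.59 without wild-type replicate 3. *SPAC212.12*, beside *tlh1*, had 47, 38, and 20 against 16, 8, and 13 (−1.65, adjusted p = 0.0158), and −1.90 without wild-type replicate 3. That of *SPAC212.12* did not pass without mutant replicate 2 (adjusted p = 0.0576) or mutant replicate 3 (adjusted p = 0.0590). *SPAC212.06c* (1.31, adjusted p = 0.0946) and *SPAC212.04c* (−0.47, adjusted p = 0.245) did not pass, and the other 15 had at most 22 counts in any library. These libraries were of poly(A)+ RNA, and the silent mating-type genes *mat2-Pc* and *mat2-Pi* were not analysed here.

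**Figure D3:**
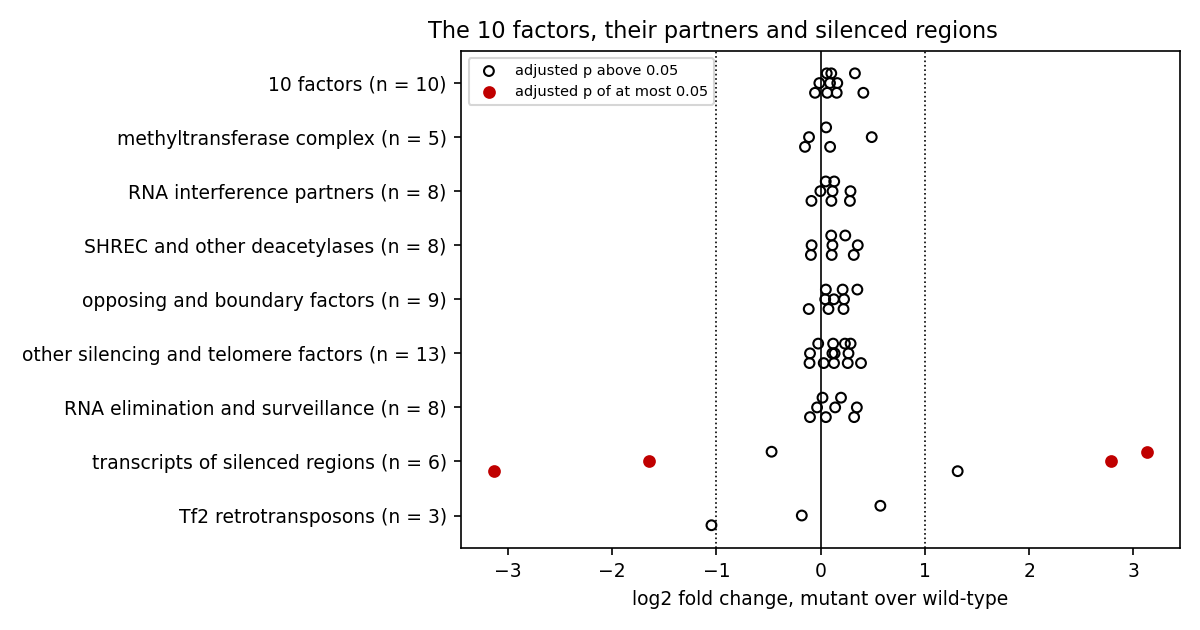
Log2 fold change (mutant over wild-type) of the 10 factors, of the genes of 6 partner lists, and of tested transcripts of silenced regions and Tf2 retrotransposons, with 1 point per gene and n the number tested. Dotted lines mark a 2-fold change; no factor or partner has an adjusted p of 0.05 or less, and 4 subtelomeric transcripts (filled) do, 2 in each direction.

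Some of the 10 genes share their locus with a gene on the other strand, and several of these partners fell. In the ASM294v3 annotation, 17 genes overlap 9 of the 10 factor genes, all but *swi6*, on the other strand, and 0 do so on the same strand. Of the 17, 5 had counts and were tested, and 3 were lower and 1 higher by adjusted p alone. One of the lower genes, *SPNCRNA.1331*, passed the low-count filter only through its wild-type counts, which leans it toward such a call. Among 2516 features that overlap a tested coding gene in this way, 6.36% were lower and 4.25% higher.

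*spn6*, a septin gene that overlaps *dcr1* on chromosome III over 1903 bases, had 66, 97, and 27 counts in wild-type and 21, 13, and 13 in mutant libraries, with no overlap of the groups. It fell by 2.14 on the log2 scale (standard error 0.40, adjusted p = 0.00569), and passed in all 18 alternatives, with −2.48 to −1.81 when each library was left out and −2.48 without wild-type replicate 3. The log2 fold change of *dcr1* itself was 0.10. *meu6*, a gene induced in meiosis that overlaps *clr4* on chromosome II over 2393 bases, had 72, 91, and 45 counts against 32, 30, and 41, a fall of 1.15 on the log2 scale (standard error 0.26, adjusted p = 0.0143), and of 1.36 without wild-type replicate 3. The groups lay apart by 45 to 41 counts, and *meu6* did not pass without wild-type replicate 2 (adjusted p = 0.0750), mutant replicate 1 (0.0631), or mutant replicate 2 (0.0551).

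The noncoding gene *SPNCRNA.1331*, which covers the whole of *clr3* on chromosome II, 2453 bases, had 13, 16, and 12 counts in wild-type and 3, 2, and 7 in mutant libraries. It fell by 1.88 on the log2 scale (standard error 0.47, adjusted p = 0.0217), but did not pass by DESeq2 (adjusted p = 0.0738) or without wild-type replicate 2, mutant replicate 1, or mutant replicate 2 (0.0862 to 0.0934). Its log2 fold change was −1.94 without wild-type replicate 3. *zrt1*, a zinc transporter gene whose end overlaps *sir2* by 114 bases, was far higher in count, at 21310, 27665, and 24917 in wild-type and 33570, 31481, and 38416 in mutant libraries. Its log2 fold change of 0.34 (adjusted p = 0.0478) was close to the threshold and was 0.38 (adjusted p = 0.00171) without wild-type replicate 3. *zrt1* did not pass with RLE size factors (adjusted p = 0.0522), a minimum of 10 counts (0.0521), coding genes alone (0.0517), the offset for exon length (0.152), or this offset with the replicate block (0.127), nor when wild-type replicate 1 (0.0516) or 2 (0.204) was left out, or any 1 of the mutant replicates (0.0874 to 0.267). *SPNCRNA.67*, opposite *epe1* over 1934 bases, had 38, 71, and 60 counts against 77, 37, and 29 (log2 fold change −0.38, adjusted p = 0.502, and −0.30 without wild-type replicate 3), and did not pass.

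These partners, *zrt1* aside, had at most 97 counts in any library, so none reached the level cutoff of the study. The sources used here do not give the strand setting of the counting. Of coding genes, 212 lie wholly inside an exon of a counted gene on the other strand, with a median count of 828 per library, and 178 of them had a mean count of at least 100. *clr3*, all of which *SPNCRNA.1331* covers on the other strand, had 1630 to 2243 counts, against 2 to 16 for *SPNCRNA.1331*. These overlaps are those of ASM294v3, while the reads were counted on ASM294v2. Whether the counting separated the strands was not tested.

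**Figure D4:**
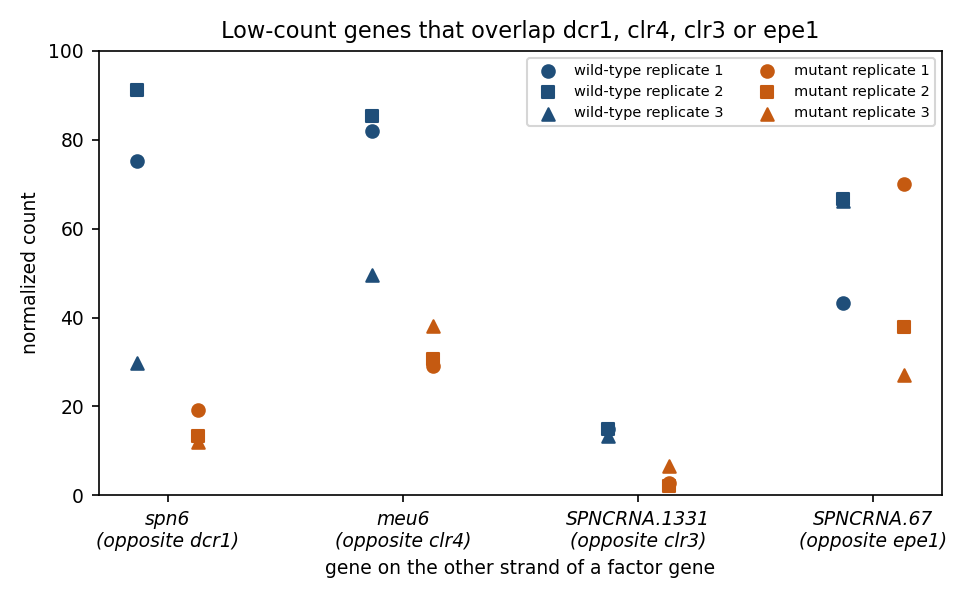
Normalized counts of 4 low-count genes that overlap a factor gene on the other strand, with 1 point per library. All mutant points lie below all wild-type points for *spn6*, *meu6*, and *SPNCRNA.1331*, and the strains overlap for *SPNCRNA.67*.

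The 20 coding genes next to the 10 factors had adjusted p of 0.0531 (*ypt3*, beside *chp1*) or higher by edgeR, and their log2 fold changes ran from −0.38 for *whi5* to 0.50 for *arp8*, the neighbour of *swi6* (adjusted p = 0.115). Without wild-type replicate 3, 2 of them were higher (*arp8* and *ade3*) and 3 lower (*ypt3*, *aim18*, and *rxt2*), against 14.3% and 15.2% of all genes.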

How the data were processed

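The authors deposited raw counts per gene, whole numbers that were not normalized, for 3 wild-type and 3 mutant libraries. They mapped paired reads with HISAT2 version 2.1.0 to ASM294v2, converted the alignments with SAMtools, and counted over exons with HTSeq version 0.10.0, per the methods and the submitters' processing notes. The sources used here do not give the strand setting. Their DESeq2 table, which holds log2 fold changes, p-values, and strain averages, was not used.

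Libraries were mapped to strains by the labels. In R version 4.3.3, edgeR version 4.0.16 was run with its filterByExpr filter, TMM scaling, and the quasi-likelihood test (glmQLFit, then glmQLFTest), and p-values of 5947 features were adjusted by Benjamini-Hochberg. Standard errors were derived from the F statistic, and RPKM uses exon lengths of ASM294v3, with which 152 of 6988 features were not paired. No sequences or coordinates are given because the builds differ. The script was tested on simulated data.

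The genes named were the 10 factors, the 4 genes with the smallest p-values of each list, *tlh1* and *tlh2*, genes overlapping a factor, and the altered genes, except for an item that is not reported here. *arp8*, *whi5*, *ypt3*, *ade3*, *aim18*, *rxt2*, *mat1-Mc*, *mfm3*, *mam3*, *SPAC212.06c*, and *SPAC212.04c* were named after their values were seen. The factors and lists were chosen with earlier results of these data known. Alternatives were RLE size factors or library totals, no filter or a minimum of 10 counts in each library, DESeq2 version 1.42.0, limma-voom (limma version 3.58.1) with and without quantile normalization, the replicate number as a block, offsets for exon length or mean expression, protein-coding genes alone, and leaving out each library.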

Additional observations from a re-analysis of the deposited data

How the results depend on the processing

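Counts of the 10 factors past the cutoffs of the study, and of those lower by adjusted p alone, were 0 in all 18 alternatives. The count higher was 0 to 1 when each library was left out, with *chp1* the 1 without wild-type replicate 1, and 0 elsewhere. Of the factors' log2 fold changes under these alternatives, 166 kept their direction and side of the threshold, 13 changed sign, and 1 newly passed. With the offset for exon length the log2 fold change of *dcr1* was −0.030, of *rdp1* −0.015, of *epe1* −0.043, of *rik1* −0.012, and of *cid12* −0.010. With protein-coding genes alone that of *swi6* was −0.0017. With quantile normalization that of *stc1* was 0.074 and of Tf2-2 0.31, and with the offset for mean expression that of Tf2-2 was 0.12. The cause was not tested. When each library was left out, the log2 fold change ran from −0.14 to 0.20 for *swi6*, −0.14 to 0.051 for *clr3*, −0.0029 to 0.35 for *sir2*, −0.087 to 0.10 for *ago1*, −0.052 to 0.23 for *rdp1*, −0.041 to 0.12 for *epe1*, −0.41 to 0.052 for *stc1*, −0.018 to 0.20 for *cid12*, −0.042 to 0.26 for *arb1*, and −0.54 to 0.12 for Tf2-2.

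Over all genes, 317 were higher and 418 lower by adjusted p alone, against 102 to 858 and 205 to 912 when each library was left out, 597 higher with quantile normalization, and 505 higher with the offset for mean expression. With at least 10 counts in every library, *tlh1*, *SPBCPT2R1.04c*, *SPAC212.12*, Tf2-10, and *SPNCRNA.1331* gave no value. *SPNCRNA.1331* and *SPNCRNA.67*, as noncoding genes, gave none with coding genes alone.

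Replicate numbers did not pair the libraries, since deviations from the strain means correlated by −0.03, −0.03, and −0.06 for replicates 1, 2, and 3. With the replicate number as a block, 0 of the 10 factors passed in either direction, and 303 genes were higher and 354 lower. With the block and the offset for exon length, *dcr1* had a log2 fold change of −0.029, *epe1* of −0.037, and *rik1* of −0.011. With 3 cultures of each strain, changes that lie inside the interval of a gene could not be told apart from no change where that interval holds 0.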

Other observations

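Of 13 Tf2 retrotransposon copies, whose near-identical sequences make the assignment of reads to a copy uncertain, 3 had enough counts to be tested. Tf2-11 had 49, 37, and 10 counts in wild-type and 13, 23, and 15 in mutant libraries (log2 fold change −1.05, adjusted p = 0.190). Without wild-type replicate 3, its log2 fold change was −1.46 (adjusted p = 0.00186), which passed. Tf2-10 had 22, 30, and 6 counts against 38, 28, and 29 (0.57, adjusted p = 0.391), and Tf2-2 had 33, 33, and 10 against 26, 20, and 28 (−0.18, adjusted p = 0.805). Wild-type replicate 3 was the lowest of the 6 libraries for each of the 3 copies. The other 10 copies had at most 14 counts in any library.

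The M-type genes *mfm1*, *mfm2*, *mam2*, *mfm3*, and *mam1*, which encode the M-factor precursors, the P-factor receptor, and the M-factor exporter, were lower in the mutant at log2 fold changes of −3.75, −2.19, −2.01, −1.33, and −0.54, and *mam3* (−0.12) did not pass. The P-type genes *map1* (−1.95) and *map2* (−0.76) were also lower and *map3* (−0.02) did not pass. The labels and the strain list of the study differ on the mating type of the mutant.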
